A study of Mus musculus with 2 samples.

Results

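The transcription factor genes Sox2, Sox3, Sox21, Sox4, Sox11 and Sox13 were followed through the epithelium of the mouse mandible, as 6 of 27998 genes listed at embryonic day (E) 12.0 and 6 of 31053 listed at E9.5. They were chosen by symbol, as the SoxB genes and the other Sox genes discussed for this epithelium, and each matched 1 row in both count matrices. Both libraries came from K14Cre;R26mT/mG embryos, in which a keratin 14 promoter drives Cre and recombined cells switch their membrane reporter from tomato to GFP. At E12.0 the mandibles of 6 littermates were pooled, the epithelium was peeled off with enzymes, and GFP-positive cells were sorted before droplet capture. At E9.5 whole mandibular arches of 8 littermates were pooled and captured without a sort, so that library also holds mesenchyme, endothelium and pharyngeal endoderm. The embryos within each pool carry no identity of their own, and there is 1 library at each stage. There is therefore no replicate check, no test was made, and every interval given covers counting error only. Stage, library and sort cannot be told apart.

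Sox proteins bind DNA through a shared high mobility group box and are sorted into groups by its sequence. SOX2 and SOX3 belong to SoxB1 and keep progenitors uncommitted in many embryonic tissues, while SOX21 belongs to SoxB2 and often acts against SoxB1 targets. SOX4 and SOX11 are the SoxC factors, broadly active in embryonic progenitors and differentiating cells, and SOX13 is a SoxD factor that can associate with the TCF/LEF proteins of the WNT pathway. In the mouth, SOX2 is best known as a factor of the dental lamina, of incisor stem cells and of tongue and taste epithelium.

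The E12.0 epithelium was divided into zones by unique molecular identifiers (UMIs) of a few marker genes that are not Sox genes. Cells of the zones and border gates had no UMI of Shh, Foxa1 or Foxa2. Zone A, the aboral epithelium in front of the teeth, was taken as cells with 3 or more UMIs of the chemokine gene Cxcl14 and none of Irx1 or Dmrt2, and held 4724 cells. Zone D, the dental epithelium, had 1 or more UMIs of the homeobox gene Irx1, fewer than 3 of Cxcl14 and none of Dmrt2, and held 1215 cells. Zone P, the oral epithelium behind the teeth, had 1 or more UMIs of Dmrt2 and none of Irx1, and held 556 cells. Cells with both markers of neighbouring zones formed the gates A/D, with 176 cells, and D/P, with 23 cells. The initiation knot, the signalling group of the tooth placode, was taken as 415 cells with a UMI of Shh and none of Foxa1 or Foxa2. Tongue epithelium was taken as 442 cells with Foxa1 or Foxa2 and no Shh, a further 52 cells held Shh and a Foxa gene, and 3752 cells met no gate. In the E9.5 library, 2864 epithelial cells were split into 2332 cells of surface epithelium and 532 cells of endoderm that carried Pax1, Foxa1 or Foxa2. Surface cells were divided by Vgll2, which marks oral ectoderm, and Tfap2b, which marks aboral ectoderm.

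A cell of the E12.0 library had a median of 6349 UMIs, and a cell of the E9.5 library 13460.5. Within E12.0 it was 6370 in zone A, 7120 in zone D and 6866.5 in zone P, but 10593.5 in A/D and 11981 in D/P. The doublet caller Scrublet marked 43.8% of A/D and 26.1% of D/P cells against 3.05% of zone D, so Sox2 in these small border gates is given with and without those cells and the other members with them. Markers not used for gating followed the names, with Tfap2b at 840 CPM (counts per 1000000 UMIs) in zone A against 33.6 in zone D, and the knot gene Dkk4 at 37.8 in the knot and 0 in zones D and P. Col14a1, a posterior marker, was 22.9 CPM in zone P against 6.75 in zone D, but 78.5 in tongue. The summed mesenchymal markers reached at most 3.91 CPM in any E12.0 gate, and the summed markers of red blood cells were at 0. Pooled cells were also separable by Xist and Y-linked UMIs into female and male embryos, and levels in both sets are given where they differ.

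All 6 genes lie on separate chromosomes of GRCm38. Sox2 occupies chr3:34650405-34652461 on the plus strand. The other 5 lie on minus strands, with Sox3 at chrX:60891366-60893430, Sox21 at chr14:118233232-118237030, Sox4 at chr13:28948919-28953713, Sox11 at chr12:27334264-27342574 and Sox13 at chr1:133382303-133424377. The first 5 are annotated with 1 exon, whereas Sox13 has 5 transcripts of 2 to 14 exons. Sox2 lies within the longer transcript Sox2ot of the same strand, which is listed in neither matrix. Sox4 overlaps Gm26735 on the opposite strand, which held 5900 E12.0 UMIs and 3243 E9.5 UMIs, and Sox21 overlaps Gm4675, listed only at E9.5 with 151 UMIs. Whether reads were counted by strand is not given in the sources used here, so Sox4 and Sox21 may share reads with these partners.

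Sox2, Sox21 and Sox11 stood highest in zone P. The 250 bases before the RefSeq start are shown for Sox2 and Sox21, the SoxB genes among them. The Sox2 window is chr3:34649745-34649994 on the plus strand and the Sox21 window chr14:118237031-118237280 on the minus strand (GRCm38.p6), each read 5′ to 3′ on its gene's strand. RefSeq starts Sox2 upstream of the first base of the gene model given above. Capitals mark CTTTG, the core bound by TCF/LEF factors, and CCAAT, on either strand.
Sox2: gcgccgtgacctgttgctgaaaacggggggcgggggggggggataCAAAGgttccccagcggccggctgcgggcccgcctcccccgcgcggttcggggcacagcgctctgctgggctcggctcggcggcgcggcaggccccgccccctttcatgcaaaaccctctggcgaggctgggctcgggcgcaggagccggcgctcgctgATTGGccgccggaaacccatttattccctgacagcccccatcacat
Sox21: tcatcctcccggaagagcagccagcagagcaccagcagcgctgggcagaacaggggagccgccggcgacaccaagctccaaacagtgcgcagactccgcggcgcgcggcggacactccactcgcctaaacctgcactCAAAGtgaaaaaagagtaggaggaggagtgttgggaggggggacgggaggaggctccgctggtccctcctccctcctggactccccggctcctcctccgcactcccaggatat
Each window holds 1 CTTTG on the reverse strand, 205 bases before the start of Sox2 and 113 before that of Sox21. Such a match stood in 48.6% of 32851 promoter windows of the same length, so its presence is common. Sox2 also holds a CCAAT on the reverse strand, a motif found in 33.8% of windows. AACAAT, a motif bound by SOX proteins and present in 9.42% of windows, was in none of the 5 member windows that RefSeq gave, those of Sox2, Sox21, Sox4, Sox11 and Sox13. No marked motifs overlapped in the windows shown.

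Sox2 had the steepest distribution of the 6 genes along the oral to aboral axis. Its level was 8.11 CPM in zone A (95% Poisson interval 7.17 to 9.15), 114 in zone D (107 to 121) and 283 in zone P (267 to 300). The border gates lay between their neighbours, with 47.6 CPM in A/D (38.1 to 58.6) and 242 in D/P (186 to 310). Sox2 was thus 34.9-fold higher in zone P than in zone A (interval of the ratio 30.5 to 40.0). Zone P stood 2.48-fold above zone D (2.28 to 2.70), and D/P stood 2.13-fold above zone D (1.62 to 2.75). The ratio of zone P to D/P was 1.17 with an interval of 0.905 to 1.53, so the order of these gates was not resolved.

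Outside the 3 zones, Sox2 was intermediate. It reached 95.1 CPM in cells with Shh and a Foxa gene, 83.7 in tongue and 69.0 in the initiation knot. Zone D, the cells with Shh and Foxa, and tongue followed each other with neighbour ratios whose intervals included 1. Set directly against zone D, tongue gave a ratio of 0.735 (0.645 to 0.836). Tongue exceeded the knot by 1.21-fold (1.02 to 1.45), and the knot exceeded A/D by 1.45-fold (1.13 to 1.88). The plot of the 6 genes by E12.0 gate shows this order next to the flatter profiles of Sox4 and Sox11.

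**Figure D1:**
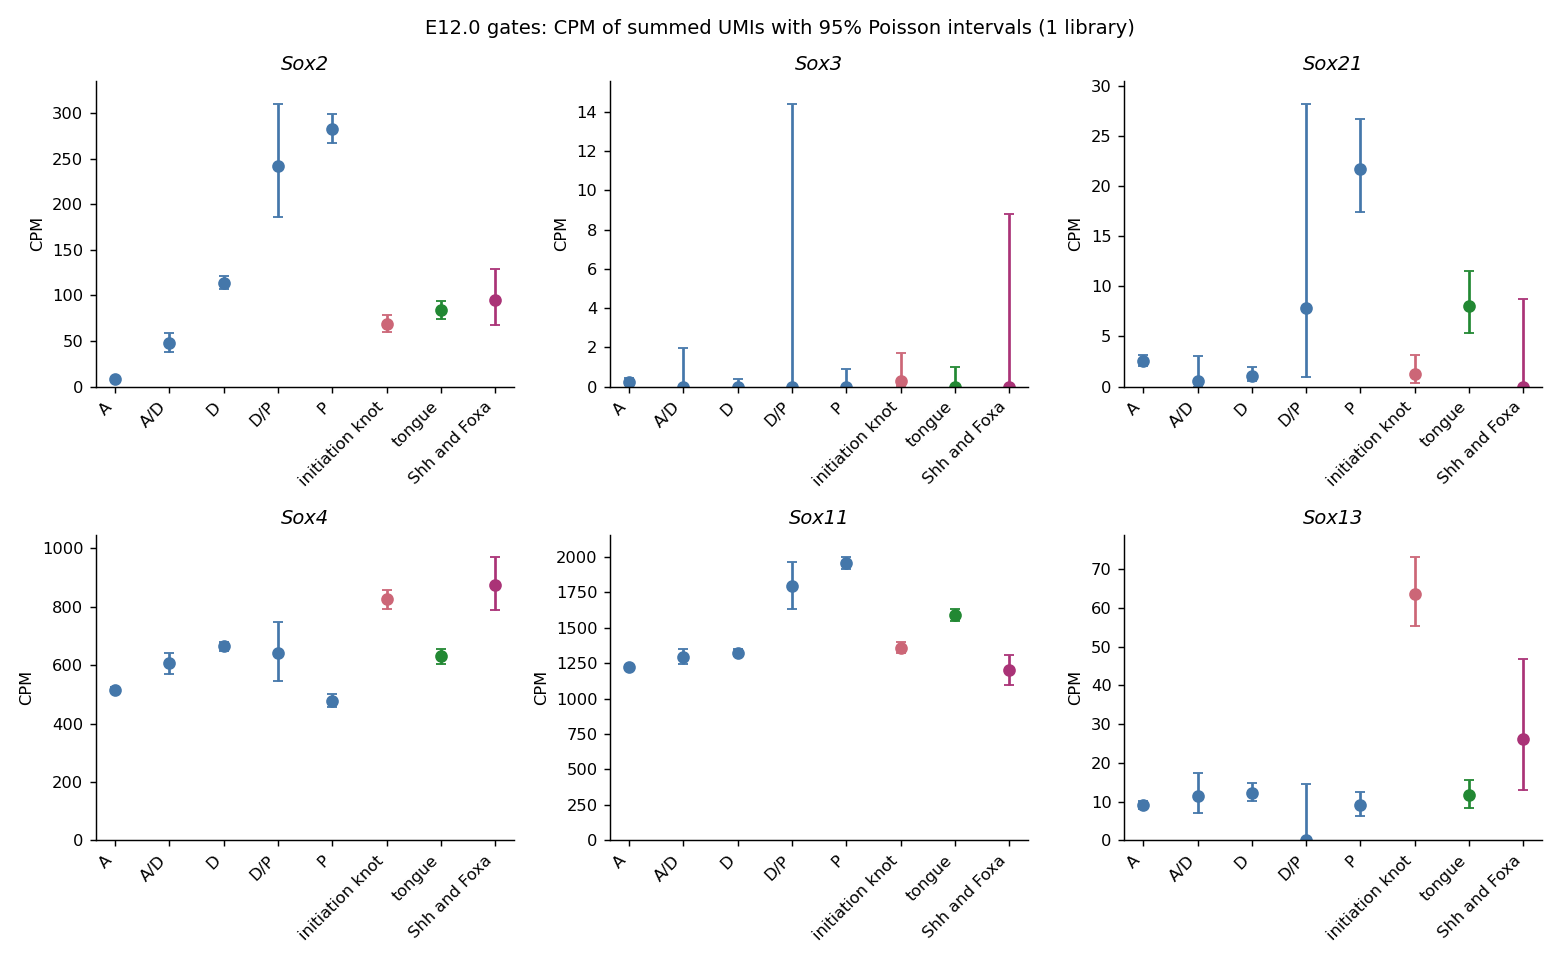
Level of each gene in the 8 E12.0 gates, in CPM on axes that start at 0, with points for summed UMIs of 1 library and bars for 95% Poisson intervals. Sox2 climbs from 8.11 CPM in zone A to 283 in zone P, Sox21 is highest in zone P at 21.7 CPM, and Sox13 is highest in the initiation knot at 63.7 CPM.

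The share of cells with a Sox2 UMI followed the same order. To set depth aside, 4000 UMIs were drawn from every cell, and 916 E12.0 and 1715 E9.5 cells with fewer were dropped. Sox2 was then seen in 2.07% of zone A, 11.6% of A/D, 31.1% of zone D, 52.2% of D/P and 58.4% of zone P cells. Before thinning these shares were 3.64%, 27.3%, 45.4%, 82.6% and 74.1%. At E9.5, endothelial cells, which should lack Sox2, showed it in 0.267% of thinned cells at a median depth of 14508 UMIs before thinning. E9.5 mesenchymal cells showed it in 3.47%, so the zone A share lay between those of 2 cell types outside the epithelium, though of another library.

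Part of the zone A signal sat in cells called doublets. The 299 zone A cells that Scrublet marked held Sox2 at 44.2 CPM, and the other 4425 held 3.70 CPM. Without doublets A/D stood at 31.4 CPM and D/P at 292, while zone D stood at 116 and zone P at 299.5. The order of zones A, D and P was the same in both sets, but the ratio of zone P to zone A became 81.1 (66.4 to 99.7).

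Within cells that lacked Irx1, Dmrt2, Shh and Foxa UMIs, Sox2 declined as Cxcl14 rose. In thinned cells it was 109 CPM at 0 Cxcl14 UMIs, 55.3 at 1, 23.8 at 2, 11.4 at 3 to 5, 4.599 at 6 to 10 and 0.903 at 11 or more. The last bin held 1107 cells and 4 Sox2 UMIs. With doublets removed, the level at 3 to 5 Cxcl14 UMIs fell to 5.04 CPM and at 11 or more to 0.229 CPM. Sox2 and Cxcl14 thus changed in opposite directions in cells without a thinned UMI of the other gating genes. Thinning also removed UMIs of those genes. Gates set on thinned counts held 887 zone D and 361 zone P cells, against 1184 and 526 set before thinning. The low bins can therefore hold cells of zones D and P, and the bins from 3 UMIs overlap zone A. The decline is thus not separate from the zone levels. These bins, and those of Irx1 and Dmrt2, were drawn after the zone levels had been seen.

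Dmrt2 and Irx1 showed different relations to Sox2. Sox2 rose from 50.4 CPM in cells without either marker to 263 at 1 Dmrt2 UMI, 379 at 2 and 410 at 3 or more, where 25 cells remained. Against Irx1 it reached 105 CPM at 1 UMI, 118 at 2 and 113 at 3 or more, with overlapping intervals among those bins. The cells without either marker covered every Cxcl14 bin, and those with 0 Cxcl14 UMIs held Sox2 at 109 CPM. More Dmrt2 went with more Sox2 beyond the first UMI, whereas more Irx1 did not.

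**Figure D2:**
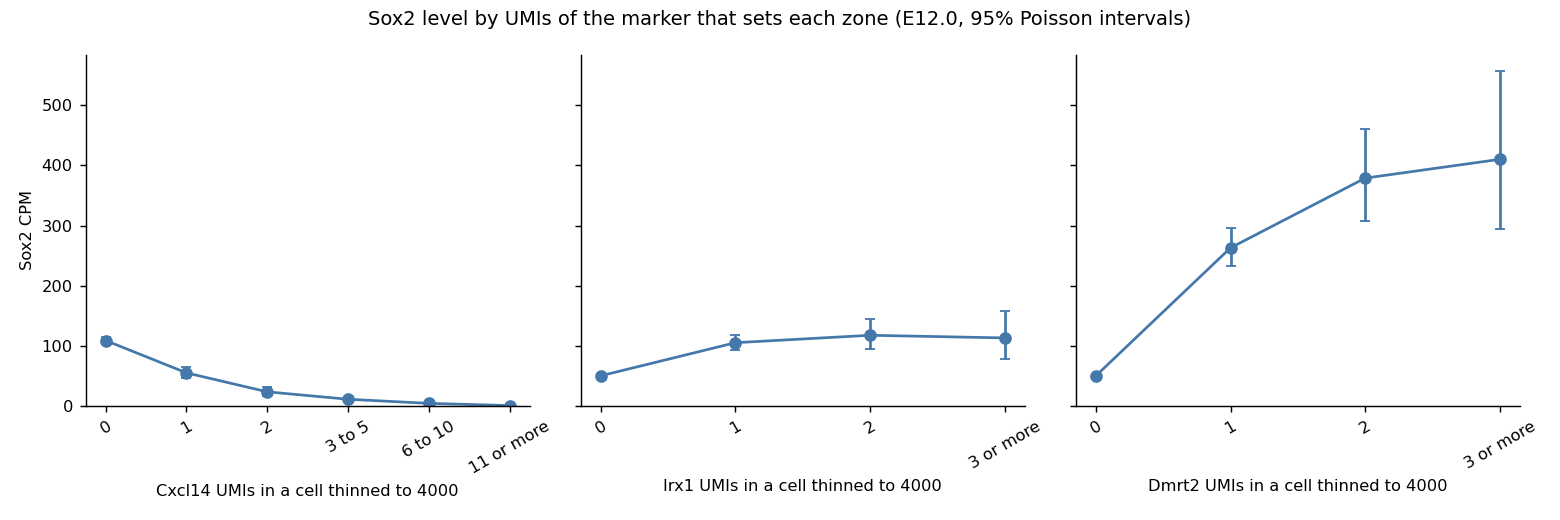
Sox2 level (CPM, shared axis from 0) in E12.0 cells thinned to 4000 UMIs, by the number of Cxcl14, Irx1 or Dmrt2 UMIs in the cell, with 95% Poisson intervals. The level falls from 109 to 0.903 CPM with Cxcl14 and reaches 410 CPM with Dmrt2. With Irx1 it is 50.4 CPM at 0 UMIs and flat near 105 to 118 CPM from 1 UMI.

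Sox21 shared its highest gate with Sox2 but was near absent from zone D. It stood at 21.7 CPM in zone P (17.4 to 26.6, from 89 UMIs), 8.01 in tongue, 7.81 in D/P from 2 UMIs, 2.53 in zone A and 1.07 in zone D. The knot held 1.25 CPM, A/D 0.540 CPM from 1 UMI, and the 52 cells with Shh and Foxa held none, with an upper bound of 8.77 CPM. Sox21 was 20.2-fold higher in zone P than in zone D (10.5 to 43.6) and 2.70-fold higher than in tongue (1.76 to 4.26). Zone A exceeded zone D by 2.36-fold (1.22 to 5.10), the reverse of Sox2.

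Thinned cells gave a Sox21 share of 7.22% in zone P, 2.63% in tongue and 0.422% in zone D. Unthinned shares were 13.3%, 6.11% and 0.823%. Along Cxcl14, Sox21 did not fall steadily. It went from 6.02 CPM at 0 UMIs to 1.03 at 2 and back to 4.52 (2.76 to 6.98) at 11 or more, where Sox2 was lowest.

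Sox3, the other SoxB1 gene, was close to undetected. All E12.0 cells together held 9 UMIs, of which 7 fell in zone A, 1 in the knot and 1 in an ungated cell. Zones D and P held none, with upper bounds of 0.396 and 0.897 CPM. At this depth no order of the zones could be read for Sox3.

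The SoxC genes were detected in most cells of every gate, and their levels varied less between gates than that of Sox2. Sox4 was seen in 80.4% to 96.2% of thinned cells in the 8 gates and Sox11 in 97.5% to 100%. Sox4 was highest in the cells with Shh, at 875 CPM with Foxa and 825 without (794 to 857). It stood at 664 CPM in zone D, 640 in D/P, 630 in tongue, 606 in A/D, 516.5 in zone A and 479 in zone P. Sox4 was therefore lowest where Sox2 was highest, with zone P at 0.721 of zone D (0.685 to 0.759).

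Sox11 ran the other way from Sox4 between these zones. It was 1952 CPM in zone P (1910 to 1995), 1792 in D/P, 1588 in tongue, 1358 in the knot, 1324 in zone D, 1295 in A/D, 1225 in zone A and 1199 in the cells with Shh and Foxa. Zone P exceeded zone D by 1.47-fold (1.43 to 1.52). It exceeded zone A by 1.59-fold (1.56 to 1.63), past the 1.5-fold limit used below. The knot, zone D and A/D were neighbours whose ratios included 1. The SoxC pair thus did not share a profile across zones D and P.

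Sox13 was highest in the initiation knot. Its level there was 63.7 CPM (55.2 to 73.0, from 204 UMIs), against 12.3 in zone D, 11.6 in tongue, 11.4 in A/D, 9.15 in zone A and 9.0 in zone P. D/P held no UMI, which allows up to 14.4 CPM. The cells with Shh and Foxa held 26.2 CPM (13.1 to 46.8). Sox13 was 5.16-fold higher in the knot than in zone D (4.09 to 6.55) and 2.43-fold higher than in the cells with Shh and Foxa (1.33 to 4.95).

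After thinning, Sox13 was seen in 22.1% of knot cells and in 2.66% to 4.77% of zone A, D and P and tongue cells. Unthinned, the knot share was 31.1%. Neuronal markers summed to 55.2 CPM in the knot against 3.87 to 23.8 in the other gates, and periderm markers to 482 against 184 to 310. Without doublets, which made up 11.8% of the knot, the Sox13 ratio of knot to zone D stayed past the 1.5-fold limit used below. It also stayed past that limit without cells of 10 or more periderm UMIs, which left 369 knot cells. The part of cells with neuronal markers in the Sox13 level was not tested.

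Within the knot, Sox13 was seen less often in cells with Sox2 than in cells without. Of 81 thinned knot cells with a Sox2 UMI, 9 had Sox13 (11.1%, exact binomial interval 5.21 to 20.1), against 78 of 313 without Sox2 (24.9%, 20.2 to 30.1). In unthinned cells Sox13 was 31.2 CPM in the 115 cells with Sox2 and 77.5 in the 300 without. Sox2 was 36.9 CPM in the 129 cells with Sox13 and 84.7 in the 286 without. Median depth was 7381 UMIs with Sox2 and 6607 without, so the lower Sox13 level lay in the deeper cells. Doublets were kept here. The 49 knot doublets held Sox13 at 21.6 CPM and Sox2 at 74.0, against 74.3 and 67.7 in the other 366 cells. Their part in this difference was not tested.

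The knot cells without Sox2 also carried more Shh, the ligand that defined the gate. Shh stood at 526 CPM without Sox2 and 242 with it, and at 643 CPM with Sox13 and 342 without. Cxcl14 was 424 CPM without Sox2 and 221 with it, but 327 with Sox13 and 381 without. Lef1, a WNT effector of the placode, was 433 CPM with Sox13 and 288 without. This split was made after the knot levels had been seen.

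The members were next compared between pairs of gates by size. A gene counted as higher or lower where the fold reached 1.5 with 5 CPM added to both sides, among genes at 10 CPM or more in either gate. Between zones P and D, 2 of 5 members considered were higher, Sox2 at a log2 fold of 1.28 and Sox21 at 2.13, where 3.7% of 8874 genes were. None was lower, against 2.74% of genes. Sox11 fell just short at 0.56 and passed at 0.59 to 0.62 under 5 alternatives, the removal of doublets among them, and the members' median was 0.56 against 0.02 over all genes.

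Between zones A and D, Sox2 was lower at a log2 fold of -3.18 (-3.80 without doublets), as 1 of 4 members considered, where 4.35% of genes were lower and 4.91% higher. The members' median was -0.33 against -0.02 over all genes. Between the knot and zone D, Sox13 was higher at 1.99 and Sox2 lower at -0.69, out of 4 considered, where 4.77% of 8906 genes were higher and 1.74% lower. The Sox2 difference from zone D was not stable. It shrank to -0.29 in cells with Y-linked UMIs and to -0.54 in thinned cells. With each gate set by its own marker alone it was -0.47, and with at most 5% mitochondrial UMIs -0.57. Zone D was limited to fewer than 3 Cxcl14 UMIs and the knot was not. Summed anterior markers were 129 CPM in zone D and 491 in the knot, and their part in the Sox2 difference was not tested.

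Tongue differed from zone P by lower Sox2 at -1.70 and lower Sox21 at -1.03, as 2 of 5 considered, where 2.26% of genes were lower and 2.74% higher. The median over members was -0.30 against 0.00 over all genes. Sox21 in this pair shrank to -0.52 in cells with Xist and no Y-linked UMI. Sox4, with a tongue to zone P ratio of 1.32 (1.24 to 1.40), and Sox11, with 0.814 (0.787 to 0.842), stayed under the limit.

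**Figure D3:**
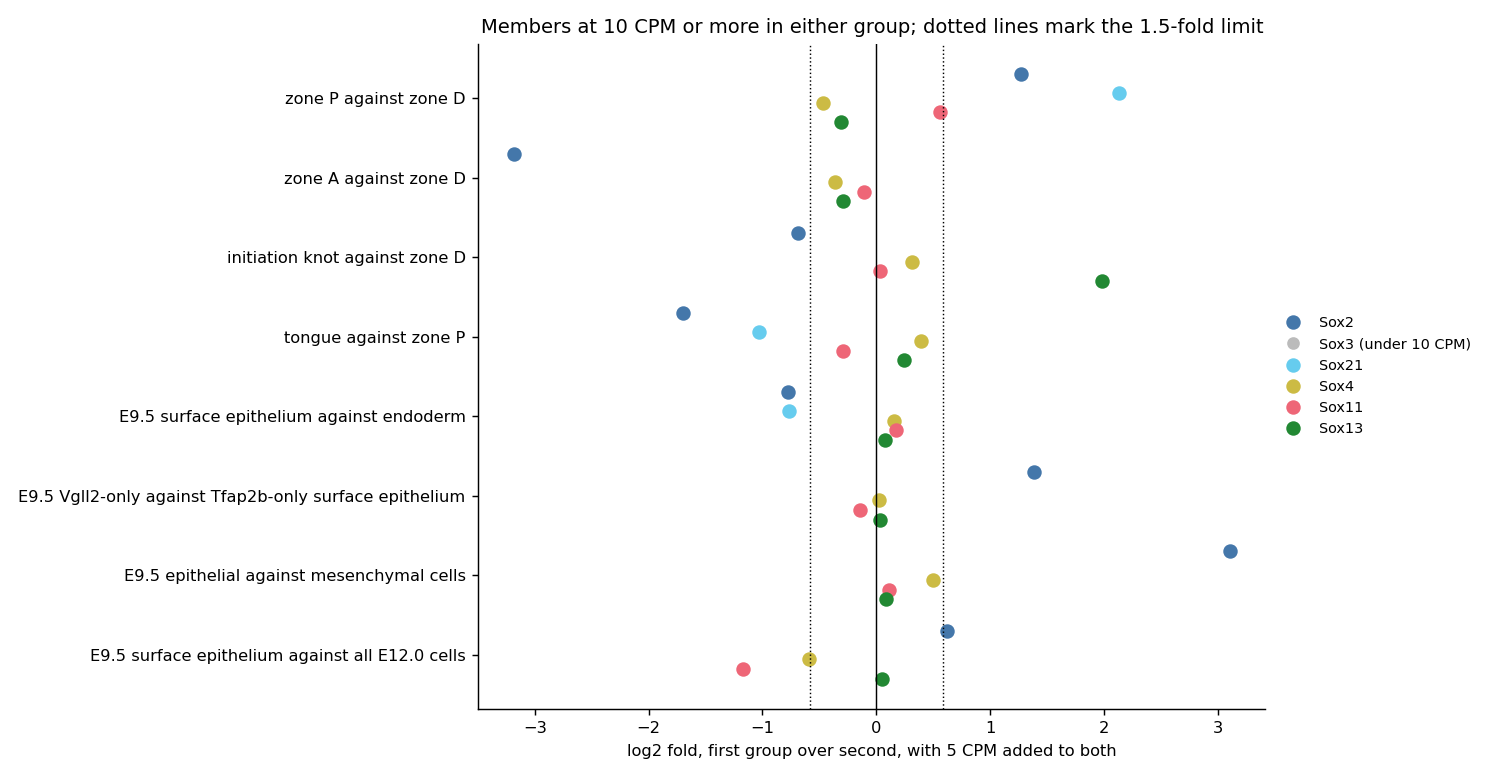
Log2 fold of each member with 5 CPM added to both sides, for members at 10 CPM or more in either group, in 8 pairs of gates, with dotted lines at the 1.5-fold limit. Sox2 passes the limit in every pair shown, Sox21 in 3 and Sox13 only between the initiation knot and zone D, while Sox3 never reached 10 CPM.

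At E9.5 Sox2 was already uneven across the surface epithelium. It was 132.5 CPM in the 1179 cells with Vgll2 only (127 to 138) and 47.6 CPM in the 123 cells with Tfap2b only (37.7 to 59.4). Cells with both held 80.9 CPM and cells with neither held 79.2, which did not differ beyond counting error. Vgll2-only cells exceeded Tfap2b-only cells by 2.78-fold (2.22 to 3.53). Sox2 was seen in 36.7% of the former and 14.6% of the latter after thinning.

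This made Sox2 the 1 member of 4 considered that was higher in Vgll2-only cells, at a log2 fold of 1.39, where 1.52% of 8238 genes were higher and 3.45% lower. The median over members was 0.03 against -0.03 over all genes. Sox21 stood at 8.09 CPM with Vgll2 only and 5.43 with Tfap2b only, a ratio of 1.49 with an interval of 0.764 to 3.33. Sox4 and Sox13 gave ratios of 1.02 and 1.03 with intervals that included 1, and Sox11 gave 0.903 (0.848 to 0.964).

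Endoderm was divided by Pax1, a pouch factor gene. Sox2 was 219.5 CPM in endoderm without Pax1 (204 to 236) and 164 CPM in pouch endoderm with Pax1 (152 to 176). Sox21 had the opposite order, with 11.6 CPM without Pax1 and 19.3 CPM in pouch (15.5 to 23.9), 1.67-fold higher (1.13 to 2.53). Sox11 was 389 CPM in pouch and 754 in the other endoderm, a ratio of 0.516 (0.485 to 0.549). Of these differences only that of Sox11 passed the 1.5-fold limit. In thinned cells Sox21 was seen in 3.58% of pouch and 4.48% of other endoderm cells, so the share did not follow its level. Summed markers of red blood cells were 1715 CPM in pouch and 155 in the other endoderm, and their part in these levels was not tested.

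Over the whole surface epithelium Sox2 was 107 CPM against 187 in endoderm, and Sox21 was 7.38 against 16.1. Both were lower at a log2 fold of -0.77, as 2 of 5 members considered, where 1.75% of 8221 genes were lower and 0.742% higher. The median over members was 0.08 against 0.00 over all genes. The Sox21 difference shrank to -0.34 in thinned cells and to -0.50 in cells with Y-linked UMIs. In endoderm Sox2 itself differed between the sets, with 167 CPM in cells with Xist only and 217 in cells with Y-linked UMIs.

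In the named gates outside the epithelium Sox2 was low at E9.5. It stood at 15.1 CPM in Sox10 crest cells, 9.21 in mesenchymal cells and 1.95 in endothelial cells. Epithelial cells exceeded all mesenchymal cells by 12.5-fold (11.6 to 13.4), and Sox2 was 1 of 4 members considered that were higher, where 13.8% of 8280 genes were higher and 5.0% lower. The median over members was 0.30 against 0.09 over all genes. Sox21, at 9.07 and 0.387 CPM, differed by 23.4-fold (16.8 to 33.5) but lay under the 10 CPM minimum.

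Sox3 was again sparse, with 112 UMIs in all E9.5 cells. The surface epithelium held 1.53 CPM (1.13 to 2.02) from 49 UMIs, the endoderm 0.909 from 7 and all mesenchymal cells 0.457 from 46. Epithelium exceeded mesenchyme by 3.08-fold (2.05 to 4.65). Sox4 ranged from 308 to 390 CPM over the 6 epithelial gates, against 247 in mesenchymal cells. Sox13 stayed between 8.78 and 15.1 CPM in all 9 named gates, epithelial or not.

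**Figure D4:**
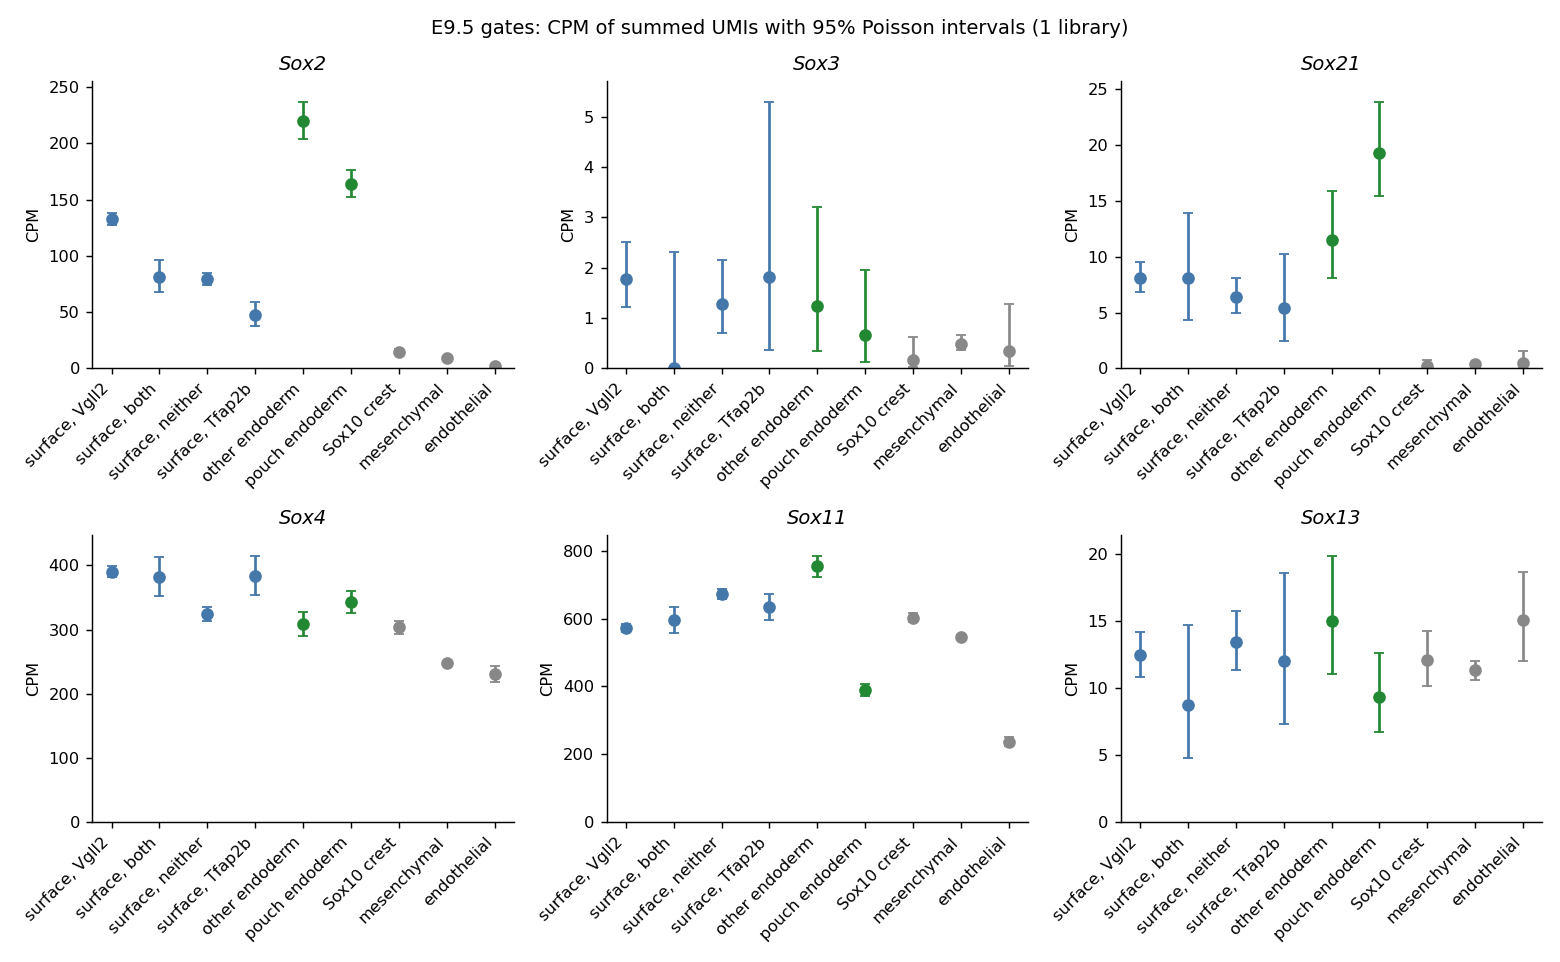
Level of each gene in the 9 named E9.5 gates, in CPM on axes that start at 0, with points for summed UMIs of 1 library and bars for 95% Poisson intervals. Sox2 is 219.5 and 164 CPM in endoderm, 47.6 to 132.5 CPM in surface cells and at most 15.1 CPM in cells that are not epithelial, while Sox13 lies between 8.78 and 15.1 CPM everywhere.

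No member passed the size limit between forming periderm, taken as the 730 surface cells with a UMI of Sfn, and other surface cells. The former had Sox2 at 92.8 CPM against 115 in other surface cells, a ratio of 0.810 (0.751 to 0.872). Sox21 was 4.94 against 8.60 CPM (0.575, 0.415 to 0.784). Sox3 gave 0.721 with an interval of 0.351 to 1.39, and Sox13 was 14.8 against 11.45 CPM (1.295, 1.054 to 1.588).

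Between stages, surface epithelium at E9.5 was set beside all E12.0 cells over 9109 genes. Sox2 was higher at E9.5, with 107 against 68.2 CPM and a log2 fold of 0.62, where 13.6% of genes were higher. Sox4 was lower, at 367 against 557 CPM (-0.60), and Sox11 lower, at 611 against 1377 CPM (-1.17), where 28.4% of genes were lower. Of 4 members considered, only Sox13 stayed within the limit, at 12.6 and 12.0 CPM, and the median was -0.27 against -0.18 over all genes. The Sox2 difference was 0.10 among cells with at most 5% mitochondrial UMIs, a limit that kept 3254 of 11355 E12.0 cells, and 0.51 in cells with Xist only. The Sox4 difference lay between -0.58 and -0.53 under 4 alternatives, without doublets among them.

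Sox3 fell under the minimum but was 13.2-fold higher at E9.5 (6.42 to 30.6), on 49 and 9 UMIs. The spread of Sox2 was also unequal at the 2 stages. Vgll2-only cells at E9.5 held 0.468 of the zone P level (0.436 to 0.503), whereas Tfap2b-only cells held 5.87-fold more than zone A (4.51 to 7.58). The oral to aboral ratio of Sox2 was 2.78 at E9.5 and 34.9 at E12.0. Without doublets these ratios were 2.72 and 81.1, and Tfap2b-only cells held 13.3-fold more than zone A (9.76 to 17.9). The gates rest on different genes at each stage, and whether the ratios would differ in other embryos was not tested.

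Sox11 was lower at E9.5 in each pair of gates compared across stages. It was 0.293 of zone P in Vgll2-only cells (0.285 to 0.302), 0.517 of zone A in Tfap2b-only cells (0.486 to 0.550) and 0.475 of tongue in endoderm without Pax1 (0.452 to 0.498). Sox2 in that endoderm exceeded tongue by 2.62-fold (2.29 to 3.01). Descent between the gates of a pair was not traced here, and apart from Foxa they rest on different genes. Lineage tracing in the study placed descendants of Shh-positive endoderm mostly in the posterior tongue.

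Co-detection in thinned cells was expressed as the joint share of cells divided by the product of both shares. For Sox2 with Sox21 at E12.0 it was 2.14 (1.64 to 2.74), from 61 cells with both. Summed within gates it was 1.15 with an interval of 0.786 to 1.62. That sum leaves out ungated cells, where Sox21 was seen in 3.46% of cells with Sox2 (2.33 to 4.93) and 1.51% of cells without (1.06 to 2.08). In zone P, Sox21 was seen in 7.17% of cells with Sox2 and 7.31% of cells without. In tongue the shares were 6.45% (6 of 93 cells) and 1.53% (5 of 326), with overlapping intervals.

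Against the genes that set or mark zones, Sox2 gave 3.35 with Dmrt2 and 1.67 with Irx1, and 0.318 with Cxcl14 and 0.264 with the aboral factor gene Tfap2b. With Shh it gave 1.16 (0.901 to 1.47). Sox21 gave 4.67 with Dmrt2 but 0.246 with Irx1, so the pair differed in its relation to Irx1. Sox21 was seen in only 163 thinned cells, 5 of them in zone D, so the Irx1 ratio rests on few cells. Sox13 gave 5.38 with Shh (4.24 to 6.73). Sox4 and Sox11 were both seen in 82.2% of cells, a ratio of 1.00, as their high shares allow little else.

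In the E9.5 surface epithelium, Sox2 gave 1.26 with Vgll2 (1.14 to 1.39) and 0.557 with Tfap2b (0.305 to 0.933). With Irx1 it gave 0.806 with an interval that included 1, and with Sox21 it gave 1.14 (0.726 to 1.71).

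**Figure D5:**
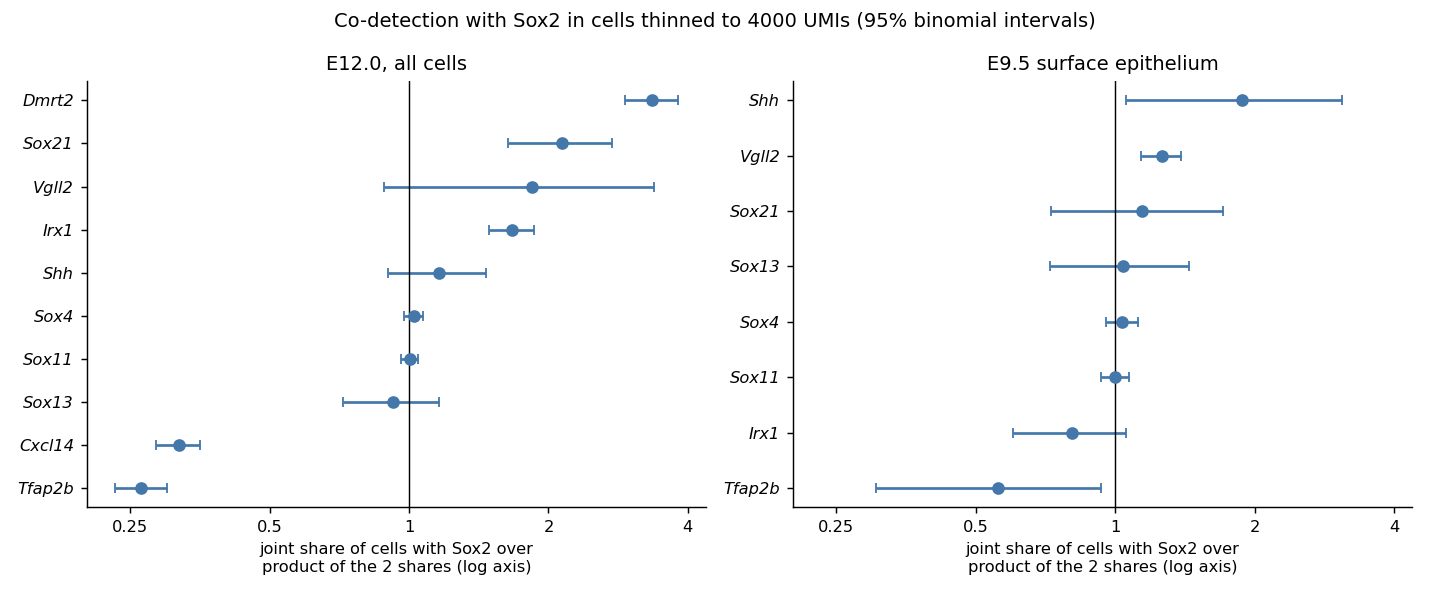
Joint share of thinned cells with Sox2 and each gene over the product of both shares, on a log axis with 95% binomial intervals, for all E12.0 cells (left) and E9.5 surface epithelium (right). At E12.0 the ratio runs from 0.264 with Tfap2b to 3.35 with Dmrt2, and at E9.5 from 0.557 with Tfap2b to 1.88 with Shh.

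Cells were also divided by UMIs of 5 cell cycle genes. In zone A, Sox2 was 11.7 CPM in cycling cells and 3.61 in cells with no such UMI, a ratio of 3.25 (2.28 to 4.75). The cycling cells were deeper, with medians of 7985 and 5524.5 UMIs, and without doublets the ratio was 2.04 (1.27 to 3.39). In zone P the ratio was 1.26 (1.07 to 1.496), and in zone D close to 1 with an interval that included 1. In the knot the Sox2 ratio was 1.503 (1.07 to 2.149), but 1.359 without doublets, with an interval of 0.94 to 1.996. Sox13 ran the other way in the knot, with 43.9 CPM in cycling and 106 in non-cycling cells (0.415, 0.305 to 0.565), and 0.432 without doublets. Sox13 was also lower in cycling cells of zone A (0.63, 0.485 to 0.8185) and zone D (0.578, 0.358 to 0.961), with and without doublets. In zone P and tongue the interval of its ratio included 1.

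Along the medial to lateral axis, cells with Isl1 were set against cells with Fgf8. In zone D, Sox2 was 139 CPM with Isl1 and 103 with Fgf8, a ratio of 1.35 (1.15 to 1.60). In zone A it was 10.7 CPM in 1520 Isl1 cells and 42.3 in 83 Fgf8 cells, a ratio of 0.253 (0.171 to 0.384), and 0.114 without doublets. Cxcl14 stood at 1604 CPM in the former and 852 in the latter. In zone P the ratio was 0.827 with an interval of 0.620 to 1.13.

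Sox2 in the knot differed between cells divided by Xist and Y-linked UMIs, in sets that kept doublets. Sex and embryo cannot be told apart between these sets. Knot cells with Xist and no Y-linked UMI held 41.1 CPM and those with a Y-linked UMI 85.7, a ratio of 0.479 (0.325 to 0.689). The same sets held 302 and 263 CPM in zone P and 120 and 106 in zone D, so zone P exceeded zone D in both. Sox13 in the knot was 68.8 and 55.3 CPM, with a ratio interval that included 1.

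Of 13 other Sox genes, 4 reached 10 CPM in zone P or D, and Sox5 and Sox6, the other SoxD genes, were higher in zone P (3.7% of all genes) while none was lower (2.74%). Sox9, a SoxE gene of many gland and skeletal progenitors, was lower in zone A than in zone D and higher in tongue, at 207 CPM, than in zone P. Summed salivary gland markers were 149 CPM in tongue and 15.6 in zone P, and their part in the Sox9 level was not tested. None of 4 was past the limit in the knot (4.77% of all genes higher and 1.74% lower), where the ratio to zone D was 1.31 for Sox5 (0.866 to 1.96) and 0.744 for Sox6 (0.593 to 0.926). Epithelium at E9.5 had lower Sox5, Sox9 and Sox10 than mesenchyme, as 3 of 5 considered, where 5.0% of all genes were lower.

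Among factor genes named with these Sox genes, Tcf7l2, a WNT effector gene, was higher in zone P than in zone D at 351 CPM, and Irx1 and Lef1 were lower. Lef1 and Relb, which encodes a subunit of NF-kappaB, were higher in the knot than in zone D, at 336 and 22.8 CPM, and Irx1 was lower. Irx1 set these gates, so its change is given as a description. Of 6 progenitor and basal genes, Meis1, Smarca2 and Krt15 were higher and Krt5 and Krt14 lower in zone P than in zone D. All 6 were lower in E9.5 surface epithelium than at E12.0, where 28.4% of all genes were lower. Only E12.0 cells were sorted for GFP switched on by the keratin 14 promoter. The Krt14 change, from 16.2 to 680 CPM, is therefore given as a description, and the part of the sort in the other changes was not tested.

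The genes with the most similar profile to each member were found by Pearson's r of log2(CPM + 5) over 14 epithelial gates of both stages, among 5154 genes. The gates share 2 libraries, so r is a description. Within the 6 E9.5 gates alone r was lower for some pairs, at 0.01 for Sox13 with Cd44, 0.52 with Bmp2, and 0.42 for Sox4 with Gtf2ird1. Sox2 was closest to Fbn2, which encodes the microfibril protein fibrillin 2 (0.899), Foxe1, a forkhead factor gene of the oral and thyroid region (0.830), and Eid2 (0.830). Sox21 was closest to Fam3c (0.889), Gnai2 (0.855) and the WNT receptor gene Fzd4 (0.848). Sox13 was closest to the adhesion gene Nectin3 (0.897), the ligand gene Bmp2 (0.845) and Cd44 (0.839). Sox11 was closest to Ptpn13, Plcb3 and Syne2 (0.978 to 0.971). Sox4 was closest to Gtf2ird1 (0.969) and Creb3l2 (0.966), then to Gm26735 (0.965), the gene it overlaps. Sox3 did not exceed 1.81 CPM in any gate, and its closest genes, Mcfd2, Ppa2 and Gm10260, are given by name only. Between members, r was 0.579 for Sox2 with Sox21 and 0.745 for Sox4 with Sox11. Both SoxC genes were lower in every E9.5 epithelial gate than in any named E12.0 gate, so their r takes in the difference between libraries. Within E12.0, zone P held the lowest Sox4 and the highest Sox11 of the named gates.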

How the data were processed

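Droplet 3′ RNA sequencing (10x Genomics) gave 1 library per stage. The authors aligned reads to GRCm38 and deposited UMI counts per gene and barcode, with Cell Ranger 2.0.0 named in the submitters' processing notes. The counts were used as deposited. The matrices held 11663 and 14293 barcodes, more than the cells stated in the study's methods. Cells with 200 to 5500 genes and at most 10% mitochondrial UMIs were kept, as in those methods, which left 11355 cells with 77936364 UMIs at E12.0 and 12744 with 166191431 at E9.5. The 2 libraries shared 51 barcodes, 44 of them kept. Doublets were called with Scrublet through Scanpy 1.11.5 (661 and 331 cells) and kept in the main values. Gates used unthinned UMIs. At E9.5, epithelial cells had 5 or more summed UMIs of Epcam, Cdh1 and Cldn6, more than of the mesenchymal genes. The 3252 E9.5 cells that met no gate had a median of 4474.5 UMIs.

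CPM were summed UMIs over summed totals, with exact Poisson, conditional ratio and Clopper-Pearson intervals at 95% (SciPy 1.17.1, NumPy 2.4.6, pandas 2.3.3, Python 3.11.15). Intervals cover counting error only. Between stages, 27514 gene IDs were matched. Values for simulated counts were recovered before use. The named genes were the 6 members, the 3 lists counted at the end of the report, the genes that overlap a member and the 3 genes most alike each member. Members and lists were chosen with earlier results of these data known, and marker bins, the split of the knot and the motifs after values had been seen. Alternatives were other gates, filters, thinning, doublet removal, embryo sets and size limits. Gene positions are from GENCODE and promoter windows from RefSeq, for 5 of 6 members. Some results of these lists are not reported here.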

Additional observations from a re-analysis of the deposited data

Results flagged for a closer look

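A few contrasts went in opposite directions in different groups, with intervals that excluded 1 on both sides. None of these differences was tested, since each stage is 1 library, and stage, library and sort cannot be told apart. Sox4 was higher in Foxa-positive than Foxa-negative cells at E12.0 (ratio 1.19, 1.14 to 1.24) and lower in Foxa-positive epithelium at E9.5 (0.879, 0.834 to 0.927). Sox11 was slightly higher in cycling than in non-cycling cells of zone A (1.055, 1.032 to 1.078) and lower in cycling cells of zone D (0.935), zone P (0.893) and tongue (0.902). Sox2 was higher in Isl1 than in Fgf8 cells of zone D (1.35, 1.15 to 1.60) and lower in Isl1 cells of zone A (0.253, 0.171 to 0.384).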

How the results depend on the processing

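Of 122 recomputed counts of members past the size limit, or Sox2 and Sox21 co-detection ratios, 104 were taken as unchanged. For a count this meant within 1.5 times its main value, and for a ratio within the interval of its main value. The knot against zone D count of 2 became 1 with each gate set by its own marker alone, at most 5% mitochondrial UMIs, thinned cells, cells with Y-linked UMIs or a fold limit of 2. With at most 5% mitochondrial UMIs, zone A against zone D rose from 1 to 2 and the stage comparison fell from 3 to 1, which it also did at a fold limit of 2. Surface against endoderm fell from 2 to 1 in thinned cells and cells with Y-linked UMIs and to 0 at a fold of 2. Zone P against zone D rose from 2 to 4 in cells with Xist only and at a fold of 1.3. Tongue against zone P fell to 1 in cells with Xist only. Epithelial against mesenchymal cells rose to 2 at a fold of 1.3 and without the CPM minimum. Requiring 2 UMIs of each gene raised Sox2 and Sox21 co-detection to 4.47 at E12.0 and 1.81 in E9.5 surface cells. Of 552 recomputed log2 folds, 484 lay within the counting interval of their main value and 68 did not. Direction was checked only for the 161 values of the 14 folds past the limit. None of these changed direction, and 148 stayed past it. The causes were not tested. Splits within gates were also recomputed without doublets, chosen after seeing the data, and 36 of 39 ratios stayed within their intervals. The Sox2 ratio of zone P to zone A, recomputed likewise, rose from 34.9 to 81.1. No paired analysis was possible because there is 1 library per stage. Genes under 10 CPM, such as Sox3 and most Sox21 gates, are limited by depth.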

Other observations

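The 3752 E12.0 cells that met no gate held Sox2 at 94.3 CPM, Sox21 at 5.19 CPM and Sox13 at 9.13 CPM. Among them Sox21 was 7.76 CPM in 1186 cells with Isl1 and 0.345 CPM, from 1 UMI, in 461 cells with Fgf8, a ratio of 22.5 with an interval of 3.88 to 903. Sox2 in the same cells was 114 and 104 CPM, and the interval of its ratio included 1. The 3252 E9.5 cells that met no gate held Sox2 at 38.5 CPM (35.8 to 41.3), Sox21 at 2.26 CPM and Sox13 at 16.3 CPM. Their Sox2 level lay above the 15.1 CPM of Sox10 crest cells, the highest named gate outside the epithelium.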
